A study of Mus musculus with 10 samples.

Results

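S100a1, S100a4, S100a6, S100a10, S100a11 and S100a13 were measured in mouse T helper cells grown as Th17, Th2 or Th0 cultures. They are 6 of the 22180 genes with a usable probe set, and each is read by 1 probe set. The genes were taken by name from the S100 family, and S100a1 was picked because its values were lower in the Th17 cultures. Its level in Th17 cultures is therefore described here without a test, while the other members and the comparison of Th2 with Th0 are tested.

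The cells were CD4-positive lymphocytes isolated from spleens of wild-type female Balb/c mice aged 10 to 14 weeks, with 1 array per culture. Every culture was stimulated with anti-CD3 (4 µg/ml) and anti-CD28 (30 ng/ml), antibodies that trigger antigen receptor signalling and costimulation. Th17 cultures (n = 4) were also given IL-6 (20 ng/ml), TGF-beta (5 ng/ml), IL-23 (10 ng/ml) and an antibody against interferon gamma (10 µg/ml). Th2 cultures (n = 3) were given IL-4 (100 ng/ml) and the same antibody against interferon gamma. Th0 cultures (n = 3), the control, had neither cytokines nor that antibody, so its presence and the added cytokines cannot be told apart in a comparison with Th0. The medium was renewed at 72 h. The titles call the replicates biological but do not say whether they came from separate animals, so p-values measure the spread between these cultures, which may be partly technical.

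S100 proteins are small calcium sensors that usually work as dimers. Calcium opens a surface on the dimer that binds target proteins such as annexins, myosin and p53, and some members also act outside the cell through receptors such as RAGE. S100a4, S100a6, S100a10 and S100a11 are familiar transcripts of effector and memory T cells, whereas S100a1 is best known from heart and skeletal muscle, where it modulates calcium release and uptake. S100a13 takes part in the unconventional export of FGF1 and interleukin 1 alpha.

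All 6 genes lie on mouse chromosome 3, in the RefSeq annotation of GRCm38.p6. The order along the chromosome is S100a1, S100a13, S100a14, S100a16, S100a3, S100a2, S100a4, S100a5 and S100a6, then S100a7a, S100a8 and S100a9, with S100a11 and S100a10 farther on beyond a block of skin barrier genes. S100a1 and S100a13 are transcribed away from each other and their annotated transcripts overlap by 98 bases at the start, so a probe in that stretch could not separate them unless it read 1 strand. The start sites used for the promoter windows are 105 bases apart. Transcripts from these starts run away from each other without overlap, so the 98 bases do not arise from them. Each window runs from 250 bases before a start to 50 bases after it, and the windows of S100a1 (minus strand) and S100a13 (chr3:90514185-90514484, plus strand) share 204 bases. The S100a1 window is shown because these neighbours are the members whose group mean was lowest in Th17 cultures. Capitals mark the bases shared with the S100a13 window:
S100a1 (GRCm38.p6, chr3:90514281-90514580, minus strand): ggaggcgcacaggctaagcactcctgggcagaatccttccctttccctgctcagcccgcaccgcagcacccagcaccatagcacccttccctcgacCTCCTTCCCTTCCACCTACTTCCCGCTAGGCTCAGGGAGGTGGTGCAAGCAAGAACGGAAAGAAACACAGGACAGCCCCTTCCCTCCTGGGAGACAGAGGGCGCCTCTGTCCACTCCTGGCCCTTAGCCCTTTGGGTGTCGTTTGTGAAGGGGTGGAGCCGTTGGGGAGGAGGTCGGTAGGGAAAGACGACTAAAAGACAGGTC

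The S100a4 and S100a11 windows are shown for contrast, since those genes stand elsewhere in the cluster and did not share the pattern of S100a1. The windows were searched on both strands, and no match overlapped another in the windows shown. The AP-1 letters TGANTCA occurred in the S100a11 window alone among the members, at 2 places, and in 7.81% of all 32851 promoter windows. The TATA box letters TATAAA occurred in the S100a4 window alone and in 13.6% of all windows. The GATA letters AGATAA stood once in the S100a11 window and in 11.2% of all windows. The GC box letters GGGCGG stood in the same window and in 35.7% of all windows. The letters CCAAT stood in the S100a6 window and in 37.4% of all windows. The STAT letters TTCNNNGAA were in no member's window and in 8.3% of all windows, and none of the searched letters stood in the S100a1 or S100a13 window. Such matches describe letters and not bound sites. Windows for 5 of the 6 members were at hand, all but S100a10. Capitals mark TATAAA in the first of these and TGANTCA in the other:
S100a4 (GRCm38.p6, chr3:90603520-90603819, plus strand): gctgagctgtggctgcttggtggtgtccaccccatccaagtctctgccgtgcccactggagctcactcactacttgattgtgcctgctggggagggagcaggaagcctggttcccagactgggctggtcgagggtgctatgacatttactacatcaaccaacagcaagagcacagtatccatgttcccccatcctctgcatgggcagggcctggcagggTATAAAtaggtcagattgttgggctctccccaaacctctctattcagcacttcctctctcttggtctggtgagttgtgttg
S100a11 (GRCm38.p6, chr3:93520246-93520545, plus strand): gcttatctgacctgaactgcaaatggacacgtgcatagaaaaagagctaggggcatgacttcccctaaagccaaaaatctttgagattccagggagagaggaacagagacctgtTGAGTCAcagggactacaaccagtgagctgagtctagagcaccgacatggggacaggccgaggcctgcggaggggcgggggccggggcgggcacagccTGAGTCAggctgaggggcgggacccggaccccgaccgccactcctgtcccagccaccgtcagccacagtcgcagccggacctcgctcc

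Values are log2 expression. Arrays of a group were not alike. On the first principal component Th17 replicate 4 and Th2 replicates 2 and 3 stood apart from the other 7 arrays, and the same arrays had the lowest mean of 8 T cell identity genes (8.70 to 8.78, against 9.16 or more elsewhere). Cd4 itself lay between 7.09 and 7.23 there and between 7.96 and 8.76 on the others. The mean of 9 basophil and mast cell markers was at least 5.95 on Th17 replicates 2 and 3 and 7.41 on Th0 replicate 1, and at most 4.31 on the remaining arrays. The arrays at 5.95 or more are called the marker-high arrays here. Not all 9 markers were raised on each: Prss34 was at 3.73 and 4.00 on Th17 replicates 2 and 3 and at 6.06 on Th0 replicate 1. In whole cultures, fewer cells of a type and less of its RNA per cell cannot be told apart.

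S100a1 (probe set 17407354) was at 4.44, 4.20, 4.04 and 3.97 on the Th17 arrays, at 5.73, 5.45 and 5.47 on the Th2 arrays and at 5.22, 5.51 and 5.76 on the Th0 arrays. Every Th17 array was lower than every Th2 and Th0 array, which is how the gene was chosen. Of all genes, 4.35% were lower in Th17 than in Th0 and 3.00% lower in Th17 than in Th2 without overlap. Means were 4.16 ± 0.21 (SD, n = 4) in Th17, 5.55 ± 0.16 (SD, n = 3) in Th2 and 5.49 ± 0.27 (SD, n = 3) in Th0 cultures. The difference was -1.33 for Th17 minus Th0 and -1.39 for Th17 minus Th2. Medians over all probe sets lay between 3.44 and 3.58 on the Th17 arrays, so S100a1 was close to the bulk of weak signals there, a range in which these values compress differences.

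The size of the S100a1 difference varied with the arrays kept, and its sign was set by how the gene was chosen. Without the 3 arrays apart on the first component it was -1.27 against Th0 and -1.50 against the lone Th2 array left. Without the 3 marker-high arrays it was -1.43 and -1.35. Th2 and Th0 cultures, the comparison in which S100a1 can be tested, differed by 0.06 ± 0.19 (SE, 95% interval -0.35 to 0.47, limma adjusted p = 0.977).

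**Figure D1:**
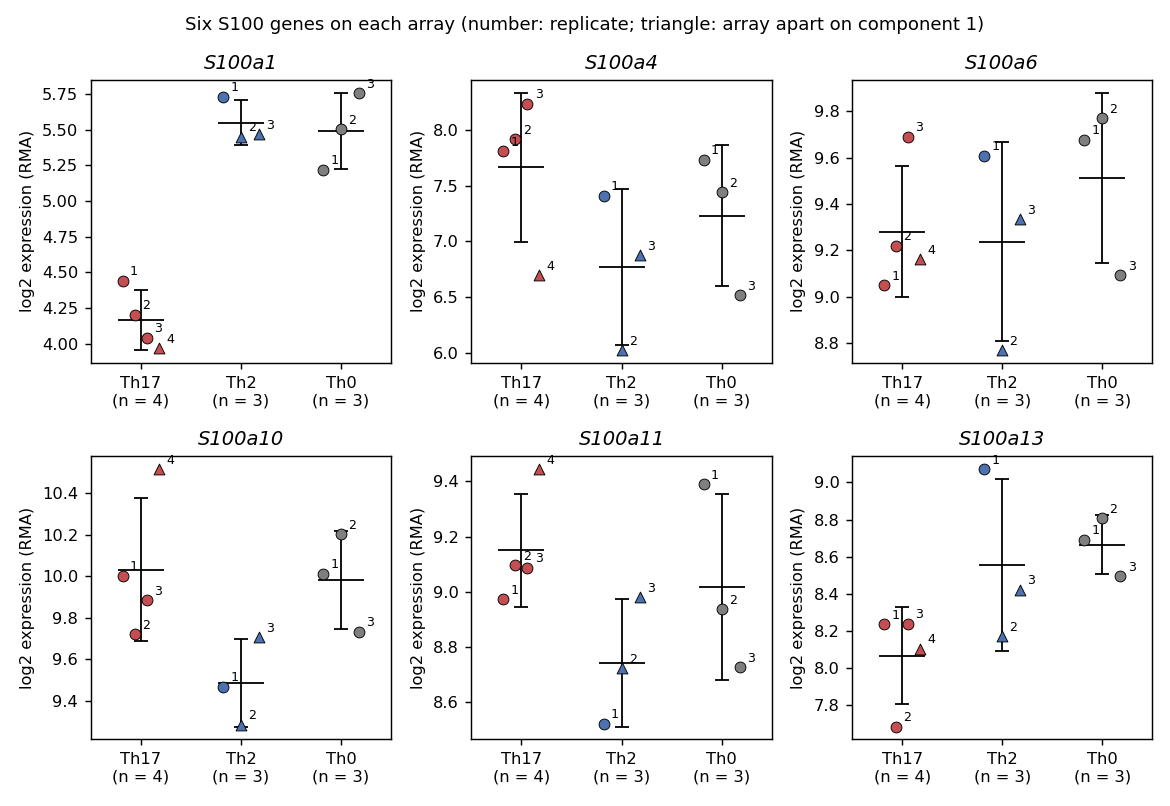
Log2 expression of the 6 S100 genes on each array, with Th17, Th2 and Th0 cultures on the horizontal axis. Points are arrays numbered by replicate, triangles are the arrays apart on the first component, horizontal bars are means and whiskers are 1 SD. S100a1 lies between 3.97 and 4.44 in Th17 cultures and at 5.22 or above in the others, whereas S100a4, S100a6 and S100a11 overlap between all groups.

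S100a13 (probe set 17399769), the head-to-head neighbour of S100a1, was at 8.24, 7.69, 8.24 and 8.10 on the Th17 arrays, at 9.07, 8.17 and 8.42 on the Th2 arrays and at 8.69, 8.81 and 8.50 on the Th0 arrays. All 4 Th17 arrays were below all 3 Th0 arrays, but Th2 replicate 2 lay within the Th17 range. The difference of Th17 from Th0 was -0.60 ± 0.22 (SE, 95% interval -1.09 to -0.11), with an unadjusted p of 0.0210 that did not pass adjustment (limma adjusted p = 0.879). That of Th17 from Th2 was -0.49 ± 0.22 (SE, adjusted p = 0.799) with all arrays and -1.02 (adjusted p = 0.456) without the 3 arrays apart, where Th2 replicate 1 alone stood for Th2. That array held the highest S100a13 value, and without it the difference was -0.23. Th2 minus Th0 was -0.11 (adjusted p = 0.961), and 0.41 without those arrays. Against the 4.35% of all genes lower in Th17 than in Th0 without overlap, S100a13 was 1 of the 5 members tested.

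S100a10 and S100a11 stand next to each other at the far end of the cluster. S100a10 (probe set 17400000), also called p11, lost the ability to bind calcium and holds annexin A2 in a complex at the membrane. It was at 10.00, 9.72, 9.88 and 10.52 on the Th17 arrays, at 9.47, 9.29 and 9.70 on the Th2 arrays and at 10.01, 10.20 and 9.73 on the Th0 arrays. The Th2 arrays were the lowest of all, by narrow gaps to Th17 replicate 2 and Th0 replicate 3. Th17 minus Th2 was 0.54 ± 0.21 (SE, 95% interval 0.09 to 1.00, unadjusted p = 0.0228, limma adjusted p = 0.686), and Th2 minus Th0 was -0.50 ± 0.22 (SE, 95% interval -0.98 to -0.01, unadjusted p = 0.0455, limma adjusted p = 0.777). Both comparisons use the same Th2 arrays. Of all genes 2.60% had higher values in Th17 than in Th2 without overlap, and 3.94% had lower values in Th2 than in Th0 without overlap. Th17 minus Th0 was 0.05 ± 0.21 (SE, 95% interval -0.40 to 0.50).

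S100a11 (probe set 17399995), a partner of annexin A1, was at 8.97, 9.10, 9.09 and 9.45 on the Th17 arrays, at 8.52, 8.72 and 8.98 on the Th2 arrays and at 9.39, 8.94 and 8.73 on the Th0 arrays. The order of group means was that of S100a10, with 9.15 ± 0.20 in Th17, 8.74 ± 0.23 in Th2 and 9.02 ± 0.34 in Th0 cultures (SD), but neighbouring groups overlapped. Th17 minus Th2 was 0.41 ± 0.19 (SE, limma adjusted p = 0.828). A processed copy, S100a11-ps, has a probe set of its own and was at 4.85, 5.00, 5.11 and 5.58 on the Th17 arrays, at 4.89, 4.78 and 4.62 on the Th2 arrays and at 5.01, 5.14 and 4.81 on the Th0 arrays. Cross-reading between the gene and its copy was not tested, so both values are uncertain to that extent. The highest S100a11, S100a10 and S100a11-ps values were all on Th17 replicate 4, an array apart on the first component. Without the 3 arrays apart, Th17 minus Th2 was 0.40 for S100a10 and 0.53 for S100a11, both against Th2 replicate 1.

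The mean of 12 effector and memory T cell genes, which hold Anxa2 and Ahnak but no S100 gene, was higher on every Th17 array than on every Th2 array, like S100a10. It was 7.23 to 7.52 on the Th17 arrays, 6.66 to 6.87 on the Th2 arrays, and 6.76 and 6.84 on Th0 replicates 3 and 1 with 7.56 on replicate 2, the Th0 array with the highest S100a10. The genes of this list did not move as a set. Lgals1, Lgals3, Vim, Crip1 and Il18r1 were higher on every Th17 array than on every Th2 array. Id2 went the other way, at 7.90 to 8.25 on the Th17 and 8.33 to 8.86 on the Th2 arrays. The rest, Anxa2 and Ahnak among them, overlapped between Th17 and Th2 arrays. The mean of 7 CD8 T cell and NK cell genes also separated Th17 from Th2 arrays. It was 4.43 to 4.83 on the Th17 arrays, 3.88 to 3.98 on the Th2 arrays and 4.13 to 4.62 on the Th0 arrays. Of these genes Klrd1 alone was apart, at 5.84 to 7.17 on the Th17 and 3.7 to 3.99 on the Th2 arrays. The other genes of that list overlapped between Th17 and Th2 arrays. The mean of 8 naive T cell genes was 6.98 to 8.25 on the Th17 arrays, 6.21 to 7.72 on the Th2 arrays and 7.06 to 7.62 on the Th0 arrays. The part of any of these cells in the S100a10 values was not tested.

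S100a4 (probe set 17399802), which binds the heavy chain of non-muscle myosin, varied most within groups. It was at 7.81, 7.92, 8.24 and 6.70 on the Th17 arrays, at 7.41, 6.02 and 6.88 on the Th2 arrays and at 7.73, 7.44 and 6.52 on the Th0 arrays. The SD within each group was 0.63 to 0.70, against 0.46 or less for every other member. The 3 arrays apart on the first component were among the 4 lowest, with Th0 replicate 3. Th17 minus Th2 was 0.90 ± 0.42 (SE, 95% interval -0.04 to 1.83, unadjusted p = 0.0586 in limma, not called after adjustment), 0.58 without those arrays and 0.52 without Th2 replicate 2 alone. Th17 minus Th0 was 0.44 ± 0.42 (SE, adjusted p = 0.999), with 0.76 without them and 0.079 without Th0 replicate 3. Th2 minus Th0 was -0.46 ± 0.45 (SE, adjusted p = 0.895), with 0.18 without them and from -0.82 without Th0 replicate 3 to -0.086 without Th2 replicate 2. The part of the lower T cell identity signal of those arrays in the S100a4 values was not tested.

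S100a6 (probe set 17399812), calcyclin, a partner of the ubiquitin ligase adaptor Cacybp, was at 9.05, 9.22, 9.69 and 9.16 on the Th17 arrays, at 9.61, 8.77 and 9.34 on the Th2 arrays and at 9.68, 9.77 and 9.09 on the Th0 arrays. All groups overlapped. Th17 minus Th0 was -0.23 ± 0.24 (SE, 95% interval -0.77 to 0.30), Th17 minus Th2 was 0.04 ± 0.24 (SE, 95% interval -0.49 to 0.58) and Th2 minus Th0 was -0.28 ± 0.26 (SE, 95% interval -0.85 to 0.30), with limma adjusted p of 0.885 or more. The intervals leave room for changes of either sign. Like S100a4, S100a6 was lowest on Th2 replicate 2.

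By the order of group means, S100a1 and S100a13 were lowest in Th17 cultures, while S100a4, S100a6, S100a10 and S100a11 were lowest in Th2 cultures. S100a4, S100a10 and S100a11 were highest in Th17 cultures, and S100a6 and S100a13 in Th0 cultures. The step of S100a1 in Th17 was not tested, and no tested step between neighbours in these orders passed. Limma called 0 of the 5 members tested in Th17 minus Th0, where 0.104% of all genes were called, and 0 of 5 in Th17 minus Th2, where 0.0766% were called. It called 0 of the 6 members in Th2 minus Th0, where 0 genes (0%) were called at all. At an unadjusted p under 0.05 there was 1 member in each comparison, S100a13, S100a10 and S100a10 in that order, beside 5.17%, 6.25% and 6.34% of all genes. The median difference of the members tested was 0.05, 0.41 and -0.28, against -0.02, -0.01 and -0.01 over all genes. Many of all genes were weaker than the members, since medians over all probe sets lay between 3.39 and 3.61. With median and interquartile range set equal, Th17 minus Th2 was 0.80 for S100a4, -0.11 for S100a6 and 0.37 for S100a10. It was 0.25 for S100a11 and -0.60 for S100a13. The part of expression level or array spread in these medians was not tested.

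**Figure D2:**
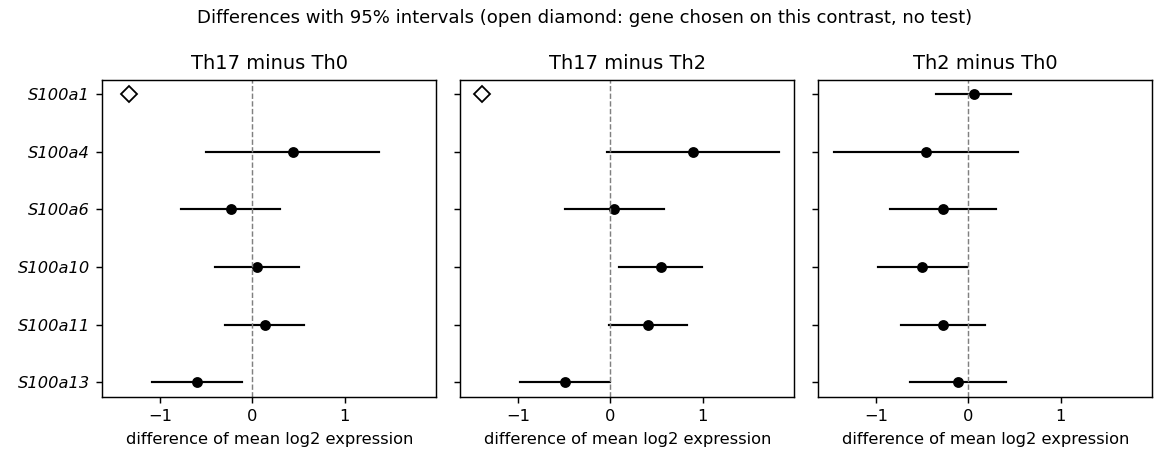
Differences of mean log2 expression for the 6 S100 genes in the 3 comparisons (horizontal axis), with 95% intervals of the limma fit as lines. Open diamonds are the values of S100a1 at -1.33 and -1.39, for which no test is given because the gene was chosen on them, and S100a13 in Th17 minus Th0 lies at -0.60 with its interval below 0.

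Among the members other than S100a1, pairs had Pearson r of both signs, down to -0.40 for S100a11 with S100a13. With 10 arrays, a low r does not show that members are unrelated. Over the 10 arrays S100a10 and S100a11 had Pearson r = 0.76 (permutation p = 0.0119, adjusted p = 0.142 over 15 pairs) and Spearman rho = 0.62 (permutation p = 0.0610, adjusted p = 0.305), and r = 0.58 without the 2 arrays farthest from the S100a10 median. S100a4 and S100a6 had r = 0.64 (permutation p = 0.0477, adjusted p = 0.179) and rho = 0.52 (permutation p = 0.135, adjusted p = 0.383), and r = 0.28 without the 2 arrays farthest from the S100a4 median, so the value over all arrays rests on those arrays, whose removal also narrows the range of S100a4. S100a6 and S100a13 had r = 0.58 (permutation p = 0.0807, adjusted p = 0.242). No pair passed adjustment over all arrays. After the group means were taken away, deviations of S100a4 and S100a6 had r = 0.81 and those of S100a10 and S100a11 r = 0.59. Deviations of S100a13 had r = 0.67 with those of S100a6 and r = 0.52 with those of S100a4. S100a1 falls into 2 separate ranges, Th17 against the rest, so no pooled r is given for it. Within groups its deviations had r = 0.20 with those of S100a13 and r = -0.87 with those of S100a11. The r of S100a4 with S100a6 was the highest positive value among the 15 pairs within groups. No pair is read here as related within groups.

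**Figure D3:**
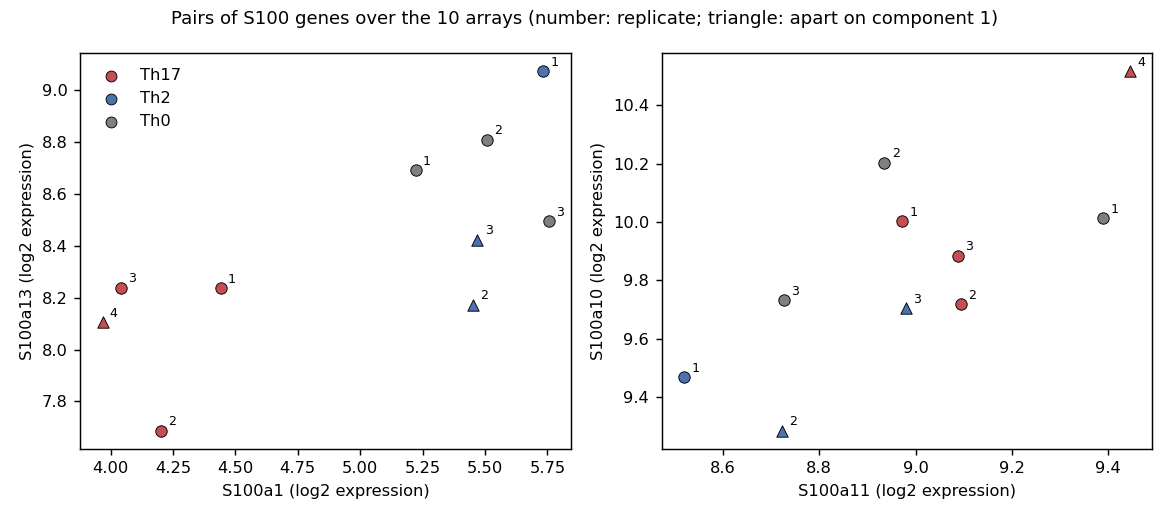
S100a13 against S100a1 (left) and S100a10 against S100a11 (right), both axes in log2 expression, 1 point per array numbered by replicate, with triangles for the arrays apart on the first component. The Th17 arrays form their own range at S100a1 values of 4.44 or less, and S100a10 and S100a11 are both highest on Th17 replicate 4.

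The other 11 S100 genes of the family list were weak. S100a2, S100a3, S100a5, S100a7a, S100a14, S100a16, S100b, S100g and S100z lay between 2.23 and 4.01 on every array, mostly below the array medians of 3.39 to 3.61. Genes of the cluster between S100a13 and S100a4 were thus weak in each culture, with S100a14 at 3.93 to 4.01 on the Th17 arrays, 3.43 to 4.01 on the Th2 arrays and 3.25 to 3.93 on the Th0 arrays. S100a8, which pairs with S100a9 as the neutrophil protein calprotectin, was at 7.16, 2.54, 2.60 and 2.68 on the Th17 arrays, at 2.80 or less on the Th2 arrays and at 3.74 or less on the Th0 arrays. S100a9 was at 6.52 on the same Th17 replicate 1 and at 4.00 or less on every other array. Among other genes of the neutrophil and monocyte list on Th17 replicate 1, Lyz2 was at 5.43 while Camp, Retnlg and Ly6g were at 2.55, 2.68 and 2.85. Limma called 0 of the 11 genes in each comparison (smallest adjusted p = 0.819), and 0 had an unadjusted p under 0.05.

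**Figure D4:**
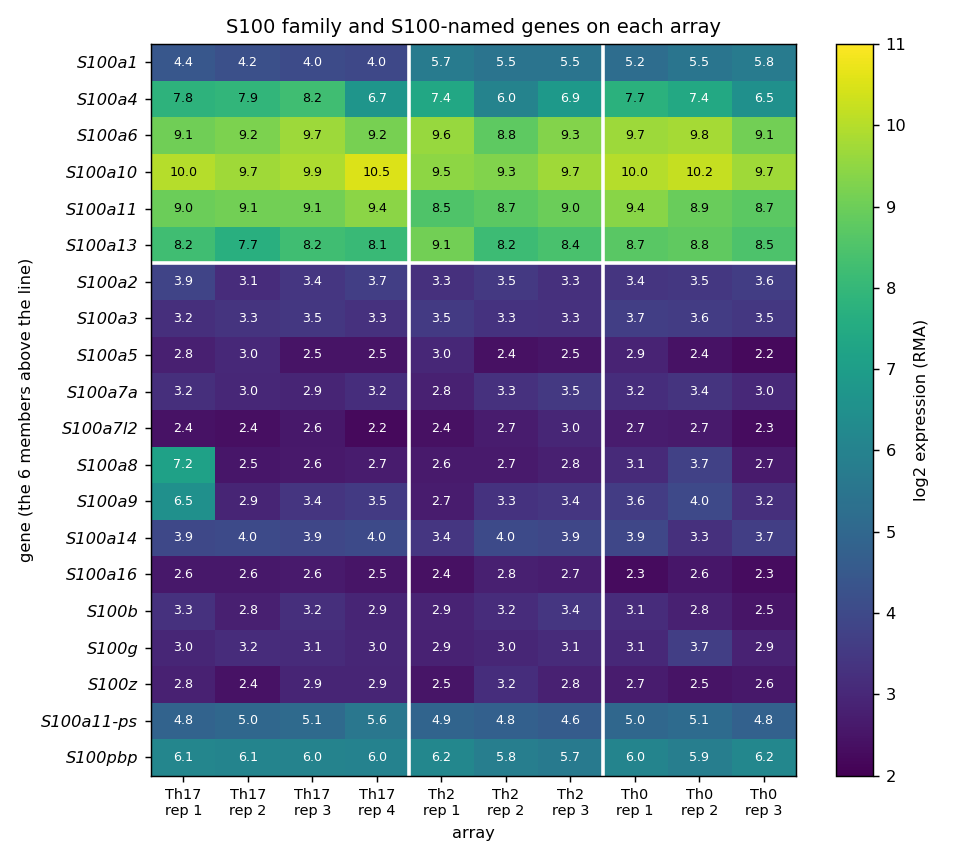
Log2 expression (colour and printed number) of the 6 members, above the line, and of 14 other S100-named genes (rows) on the 10 arrays (columns, grouped as Th17, Th2 and Th0). The members other than S100a1 lie at 6.02 or above, most of the other genes at 4.01 or lower, and S100a8 and S100a9 stand out on Th17 replicate 1 at 7.16 and 6.52.

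Beyond S100a1 on its outer side lie Chtop and Snapin. Chtop, whose product exports messenger RNA, was at 6.39 ± 0.15 in Th17, 6.83 ± 0.28 in Th2 and 6.37 ± 0.57 in Th0 cultures (SD), and Snapin, a SNARE-associated protein, at 5.82 ± 0.22, 5.65 ± 0.80 and 6.17 ± 0.55 in the same order. Of the 11 measured genes in the list of neighbours, which also reaches genes farther off, limma called 0 in each comparison. Ilf2, which encodes a double-stranded RNA binding protein, had its lowest mean in Th17 cultures as S100a1 did, at 6.44 ± 0.21 in Th17, 7.02 ± 0.34 in Th2 and 6.89 ± 0.32 in Th0 cultures (SD), with limma adjusted p = 0.658 for Th17 minus Th2 and 0.971 for Th17 minus Th0. Them5 was weak, and Th2 minus Th0 was -0.49 (adjusted p = 0.767).

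Known partners of the members were read from a list of 25 genes, of which 22 were measured. Limma called none of the 22 in any of the 3 comparisons, and 2, 4 and 2 had an unadjusted p under 0.05 in Th17 minus Th0, Th17 minus Th2 and Th2 minus Th0, beside 5.17%, 6.25% and 6.34% of all genes. The median difference was 0.12, 0.41 and -0.11 in that order, against -0.02, -0.01 and -0.01 over all genes, many of them weak. The part of expression level or array spread in it was not tested. The gene nearest to the threshold was Ppfibp1, liprin beta 1, a binding partner of S100A4. It was at 6.08, 5.76, 5.74 and 6.32 on the Th17 arrays, at 5.30, 5.23 and 5.42 on the Th2 arrays and at 5.16, 5.27 and 5.35 on the Th0 arrays. Both other groups lay below all Th17 arrays, as 3.22% of all genes did for Th0 without overlap, with differences of 0.71 ± 0.16 against Th0 (SE, unadjusted p = 0.00123, limma adjusted p = 0.324) and 0.66 ± 0.16 against Th2 (SE, unadjusted p = 0.00209, limma adjusted p = 0.344).

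Anxa2, which binds S100a10, was at 6.81 ± 0.23 in Th17, 6.07 ± 0.84 in Th2 and 6.33 ± 1.36 in Th0 cultures (SD), and its largest value, 7.84, was on Th0 replicate 2, where S100a10 was the highest of its group. Ahnak, a large scaffold of the same complex, was at 6.07 ± 0.29, 5.69 ± 0.35 and 5.65 ± 0.55 in that order. Anxa1, the partner of S100a11, was at 5.81 on Th0 replicate 1, the array with the most basophil and mast cell signal, and at 4.65 or less on the others. S100a11 itself had its second highest value on that array, 9.39. The part of basophils and mast cells in either value was not tested. Cacybp, the partner of S100a6, was at 7.07 ± 0.11 in Th17, 7.29 ± 0.27 in Th2 and 6.83 ± 0.17 in Th0 cultures (SD), with every Th2 array above every Th0 array, as for 4.48% of all genes (0.46 ± 0.17 SE, limma adjusted p = 0.767). Of the other annexins and targets, Anxa6 differed by -1.42 and Myh9, the myosin bound by S100a4, by -0.91 in Th2 minus Th0 (adjusted p = 0.774 and 0.795). On the Th2 arrays Anxa6 ran from 6.09 to 8.24 (median 6.12) and Myh9 from 6.56 to 8.16 (median 6.61). The Th2 SD was 1.23 for Anxa6 and 0.91 for Myh9, so these differences were not shared by all Th2 arrays.

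None of the 10 receptor and export genes was called by limma, and 1 had an unadjusted p under 0.05 in any comparison. That 1 was Ager, which encodes RAGE, at 4.99 ± 0.24 in Th17, 5.14 ± 0.19 in Th2 and 5.49 ± 0.50 in Th0 cultures (SD, limma adjusted p = 0.967 for Th17 minus Th0). Fgf1, exported with S100a13, differed by 0.45 in Th2 minus Th0, Bsg by -0.42 and the scavenger receptor Cd36 by -0.36 (adjusted p from 0.808 to 0.818). Among the 14 measured genes of other calcium sensors, calcium-activated proteases and calcium uptake, limma called 0, and 2, 3 and 1 had an unadjusted p under 0.05 in the 3 comparisons, beside the same 5.17%, 6.25% and 6.34% of all genes. Of the 14, 13 were higher in Th17 than in Th2 and 11 were lower in Th2 than in Th0, comparisons that share the Th2 arrays. Their median difference was 0.21 in Th17 minus Th2 and -0.18 in Th2 minus Th0, against -0.01 over all genes in each, many of them weak. The part of expression level or array spread here was not tested either. The calcium sensors Sri and Stim1 differed by -0.69 and -0.68 and the protease subunit Capn2 by -0.60 in Th2 minus Th0 (adjusted p from 0.772 to 0.818). In Th17 minus Th2 the same genes differed by 0.69, 0.75 and 0.77 (adjusted p from 0.711 to 0.842). On the Th2 arrays Sri ran from 7.63 to 8.97 (median 7.82) and Stim1 from 4.75 to 6.03 (median 4.77). The Th2 SD was 0.73 for both, so these differences were not shared by all Th2 arrays. Mcu, the pore of the mitochondrial calcium uniporter, differed by -0.51 in Th17 minus Th0 (adjusted p = 0.936).

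Likeness to each member was ranked by Pearson r of log2 expression over the 10 arrays among 17144 named genes. Nearest to S100a1 were Chchd10, a mitochondrial protein (r = 0.942), Gpr137b (r = 0.935) and Samsn1, an adaptor protein of lymphocytes (r = 0.928). Since S100a1 falls into 2 ranges, these r values mostly say that the gene is lower in Th17. Chchd10 was at 6.64 ± 0.34 in Th17, 8.25 ± 0.51 in Th2 and 8.22 ± 0.59 in Th0 cultures (SD), a difference of -1.58 for Th17 minus Th0. Samsn1 was at 5.64 ± 0.11, 6.31 ± 0.06 and 6.44 ± 0.10 in that order, a difference of -0.80. Gpr137b was weak throughout, with group means from 3.28 to 3.77. The genes were picked for following S100a1, so no test is given for them. Nearest to S100a10 was Capn2 (r = 0.964), to S100a4 Usp53 (r = 0.940), to S100a6 Smpdl3b (r = 0.935), to S100a11 Derl2 (r = 0.923) and to S100a13 Nudt21 (r = 0.944). Each is the highest r among 17144 genes over only 10 arrays. A high r can arise that way without any relation, and none of these was tested. No member was the nearest gene of another.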

How the data were processed

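Messenger RNA of 10 cultures was hybridised to 1 array each. RNA came from a miRNeasy extraction with DNase, per the labels' protocols. The deposited log2 values are RMA output of Affymetrix Expression Console 1.3.0.187, per the submitters' processing notes, which means arrays were quantile-normalized before probes were summarised. RMA hides changes in total RNA and compresses differences of weak genes. The array's genome build is not given in the sources, and coordinates of probe sets were not used here.

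Of 41345 probe sets, a platform table gave 1 symbol to 23521 and several to 1814, and did not list 16010. Probe sets with 1 symbol were used, the one with the highest mean standing for a gene, which left 22180 genes. No low-value filter was used. Promoter windows and gene order are RefSeq's on GRCm38.p6, the build of the reference tables.

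Group differences come from limma 3.58.1 (R 4.3.3): lmFit with 3 group means on all 10 arrays (7 residual degrees of freedom), eBayes, two-sided p-values adjusted by Benjamini-Hochberg over all genes of a contrast, threshold 0.05. Errors are SD over arrays or SE of the fit. Correlations have two-sided permutation p-values (100000 resamples, SciPy 1.17.1). The fit was checked on simulated data: of 200 genes changed by 1 log2 unit in Th17 minus Th0, with 22180 genes, 56% were called. The simulated noise was independent between genes and arrays, whereas 3 real arrays stood apart on the first component. With all arrays no tested member differed by as much as 1 log2 unit, so 56% is not the rate for the members. The number of arrays limits the precision.

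Named genes are the 6 members, the other family genes, up to 4 genes per list with the largest difference in Th17 minus Th0 or Th2 minus Th0 plus fixed partners (differences between Th17 and Th2 did not enter the ranking), and the genes nearest to each member. Anxa11 was fixed as a partner and is not analysed here. S100a11-ps, Lyz2, Camp, Retnlg, Ly6g, Cd4, Klrd1, Prss34, Lgals1, Lgals3, Vim, Crip1, Il18r1 and Id2 were named after their values were seen. Members and lists were chosen with earlier results of these data known. Groups and replicate numbers come from the sample titles. The description of Th2 replicate 3 carries the number 4. Alternatives covered normalization, filtering, choice of probe set, variance model, array weights, samples in the fit, replicate blocks and leaving out arrays. Fits without the 3 arrays set apart by component 1, and without the 3 marker-high arrays, were added after the data were seen.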

Additional observations from a re-analysis of the deposited data

Results flagged for a closer look

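Within the 4 Th17 arrays, a single array lay far from the other 3 for 3 of 34 genes compared in this way, and chance flags about 1 in 20 groups. S100a8 was at 7.16 on Th17 replicate 1 and between 2.54 and 2.68 on the other Th17 arrays. S100a9 was at 6.52 on the same array and between 2.94 and 3.53 on the others. Ager was at 5.34 on Th17 replicate 3 and between 4.83 and 4.89 on the others. None of the 6 members had such an array.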

How the results depend on the processing

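Limma called 0 of the tested members in each of the 3 comparisons under all 23 alternative settings. The difference of S100a1, whose sign follows from its choice, ran from -1.47 to -1.20 in Th17 minus Th0 and from -1.50 to -1.30 in Th17 minus Th2 over 22 settings. It is absent from the fit limited to genes with a mean of at least 5, since its own mean was 4.98, while 5 of the 6 members passed. The smallest adjusted p of a tested member was 0.0671, for S100a4 in Th17 minus Th2 with array weights (a difference of 1.49). Of 16 tested differences, 7 changed sign somewhere, and the cause was not tested. S100a10 in Th17 minus Th0 was -0.063 with median and interquartile range set equal, -0.11 and -0.084 with a replicate block by the number in the title and in the description, and -0.11 without the 3 arrays apart. S100a6 in Th17 minus Th2 was -0.11 with median and interquartile range set equal, -0.29 without the arrays apart and -0.13 without the marker-high arrays. S100a1 in Th2 minus Th0 was -0.078 with array weights and -0.079 without the marker-high arrays. Without the arrays apart, S100a4, S100a6 and S100a13 in Th2 minus Th0 were 0.18, 0.094 and 0.41. Leaving out 1 array in turn gave -0.079 to 0.19 for S100a1 and -0.37 to 0.083 for S100a13 in Th2 minus Th0, -0.11 to 0.16 for S100a10 and -0.012 to 0.32 for S100a11 in Th17 minus Th0, and -0.19 to 0.23 for S100a6 in Th17 minus Th2.

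Pairs of members past an adjusted p of 0.05 numbered 0 over all arrays, 2 for deviations from the group means (S100a1 with S100a11 and S100a4 with S100a6), and 0 to 1 when 1 array was left out. Those deviations were permuted freely although group means had been removed, which makes their p-values too small. The 2 pairs are therefore not read as related within groups. By the number in the title, same-numbered arrays did not pair: of 9 pairs, 1 had deviations correlated over 0.1 (range -0.309 to 0.296), and 1 of 10 arrays was closest to its own number. Th2 replicate 3, which the description numbers 4, had r = 0.494 with Th17 replicate 4, the highest of all pairs, and both are arrays apart on the first component. The replicate block by title gave 8 and 11 genes called in Th17 minus Th0 and Th17 minus Th2, and that by the description gave 5 and 5, where all arrays without a block gave 23 and 17. Over all settings these counts ran from 2 to 60 and from 3 to 330, and that of Th2 minus Th0 from 0 to 431, the last without Th2 replicate 1, so the background shares depend on single arrays.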
